A study of Mus musculus with 18 samples.

Results

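The genes described are 6 adhesion molecules that are best known outside epithelia: the cadherins Cdh2, Cdh4, Cdh6, Cdh11 and Cdh13, and the neural cell adhesion molecule Ncam1. They were chosen by symbol, and each symbol mapped to 1 Ensembl identifier among the 47643 genes of the deposited count table. RNA was measured in 18 libraries of the MPC3 line, cancer cells of the mouse prostate, by polyadenylated RNA sequencing. A group of 6 control libraries, titled plko, was compared with 6 libraries carrying the short hairpin RNA shRNF185.1 and 6 carrying shRNF185.3. Both hairpins are directed against Rnf185, which encodes a ubiquitin ligase of the endoplasmic reticulum membrane, and the series concerns its part in collagen expression and in migration. The labels give no passage or allele for the line, and they do not say whether the libraries of a group came from separate infections, so p-values measure only the spread between these libraries, which may be technical. Every group has 2 libraries in each of 3 labelled batches.

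Cadherins are membrane proteins that bind their like on the neighbouring cell in the presence of calcium. Classical cadherins carry a cytoplasmic tail that holds catenins and, through them, the actin cytoskeleton. Cdh2 (N-cadherin) and Cdh4 (R-cadherin) are classical cadherins of neural and mesenchymal tissue, while Cdh6 (K-cadherin) and Cdh11 (OB-cadherin) belong to the second class of the family. Cdh13 (T-cadherin) has no such tail, is held by a lipid anchor and binds adiponectin. Ncam1 is an immunoglobulin-type adhesion molecule that can carry polysialic acid. In carcinoma, loss of the epithelial cadherin Cdh1 with gain of Cdh2 is known as a cadherin switch.

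Total counts ranged from 22027395 to 43379662 per library. Rnf185 was at 35.9 ± 1.96 CPM (the count scaled to library depth by the authors) in control, and at 5.81 ± 0.582 and 5.80 ± 0.546 CPM in the shRNF185.1 and shRNF185.3 groups (SD, n = 6 per group). No library thus went against its label as control or hairpin. Since Rnf185 was alike in both hairpin groups, it cannot show whether libraries of the hairpins were exchanged. Of 9 prostate epithelial markers 6 passed the filter on low counts, and their summed level was 1740 to 2570 CPM in control, 1080 to 1810 with shRNF185.1 and 1220 to 1430 with shRNF185.3. Krt8 led this list, whereas Epcam averaged 0.125 CPM in control. Fibroblast markers, of which 5 of 7 passed the filter, summed to 648 to 776, 599 to 945 and 1050 to 1550 CPM in the same order of groups. Neuron markers (3 of 7) summed to 78.2 to 110, 122 to 146 and 104 to 134 CPM, led by Tubb3, and Snap25 was at 0 in every library. Glia and Schwann cell markers (2 of 6) summed to 26.5 to 34.1, 20.4 to 27.2 and 26.8 to 30.2 CPM, led by Mbp. Leukocyte markers (1 of 5) summed to 2.45 to 5.16, 1.84 to 2.97 and 2.30 to 3.49 CPM, led by Cd68. None of the 5 neuroendocrine or 5 endothelial markers passed the filter.

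Among the 6 genes the RNA of Cdh13 and Ncam1 differed from control in the libraries carrying shRNF185.3. Cdh13 fell and Ncam1 rose with that hairpin by edgeR's quasi-likelihood test at an adjusted p under 0.05, so that 2 of the 5 genes that could be tested were called, where 27.3% of all 14309 tested genes were (14.2% higher and 13.1% lower). With shRNF185.1 edgeR called 0 of the 5, against 28.9% of all genes. Of the 5, 0 had an unadjusted p under 0.05, and DESeq2 and limma-voom also called 0. Cdh2, Cdh6 and Cdh11 were not called with either hairpin. Cdh4 was too low to test. Both hairpin comparisons use the same control libraries. In bulk RNA, fewer cells with a transcript and less transcript per cell cannot be told apart.

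**Figure D1:**
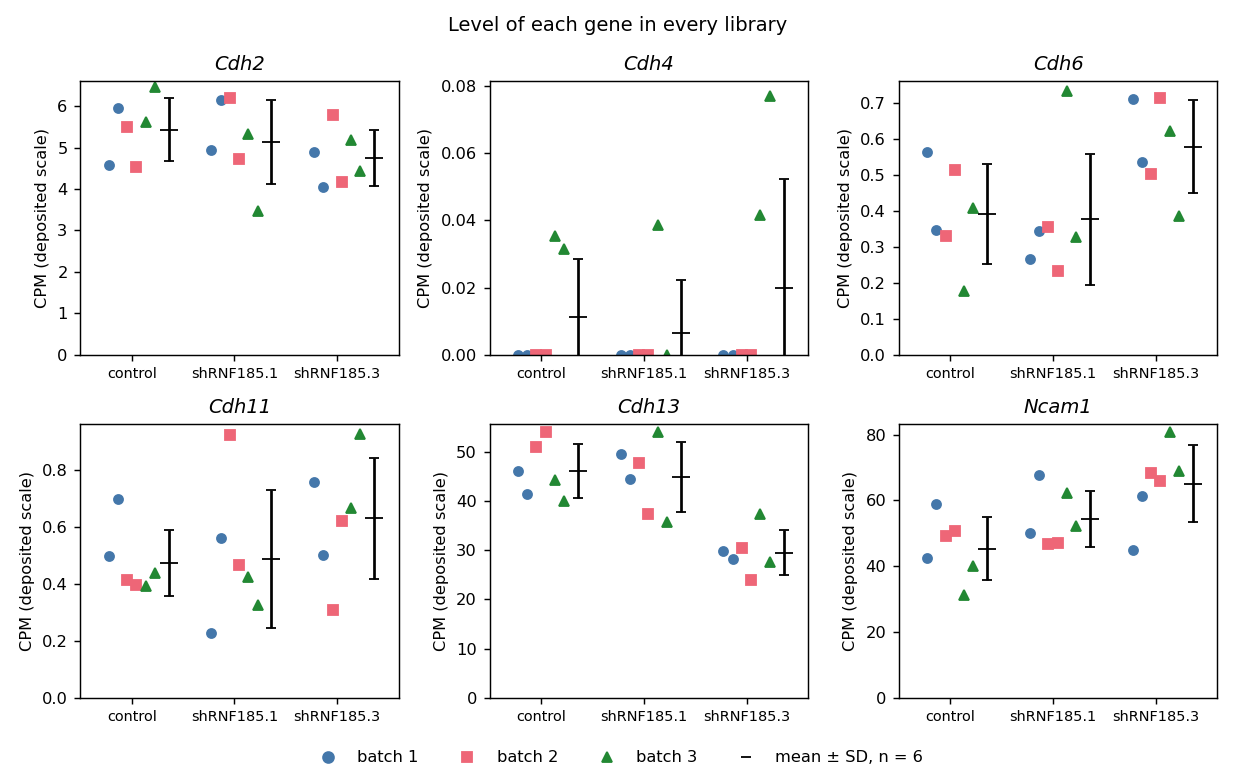
CPM of each of the 6 genes (vertical axis, linear, from 0) in every library, by group; colour and shape give the batch, and the bar gives mean ± SD of 6 libraries. All shRNF185.3 libraries lie below all control libraries for Cdh13, 5 of 6 lie above them for Ncam1, and the groups overlap for Cdh2, Cdh6 and Cdh11.

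Levels were first set side by side per kilobase of exon in GENCODE M21, since CPM favours long transcripts. In control cells Ncam1 stood highest of the 6 at 5.24 ± 1.12 CPM per kb and Cdh13 next at 4.11 ± 0.485 (SD, n = 6 each), and the ranges of these neighbours overlapped. Cdh2 followed at 0.674 ± 0.0944 CPM per kb, below every Cdh13 library. Cdh11, at 0.0531 ± 0.0131, and Cdh6, at 0.0433 ± 0.0154 CPM per kb, overlapped with each other and lay far below Cdh2. Cdh4 was last, at no more than 0.00489 CPM per kb in any control library.

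The same order held with each hairpin. The ranges of Ncam1 and Cdh13 no longer overlapped there: Ncam1 spanned 5.41 to 7.81 CPM per kb and Cdh13 3.19 to 4.82 with shRNF185.1, and with shRNF185.3 they spanned 5.20 to 9.31 and 2.12 to 3.33. The order of these 2 genes depends on the length used. Cdh13 has 11233 exonic bases in all but 3785 in its longest coding transcript, whereas Ncam1 has 8664 and 6564. Per kilobase of the longest coding transcript Cdh13 stood above Ncam1 in control, at 12.2 ± 1.44 against 6.91 ± 1.47 CPM per kb, and the shRNF185.3 ranges overlapped, at 6.30 to 9.89 for Cdh13 and 6.87 to 12.3 for Ncam1. The places of Cdh2, Cdh11, Cdh6 and Cdh4 were the same with both lengths.

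**Figure D2:**
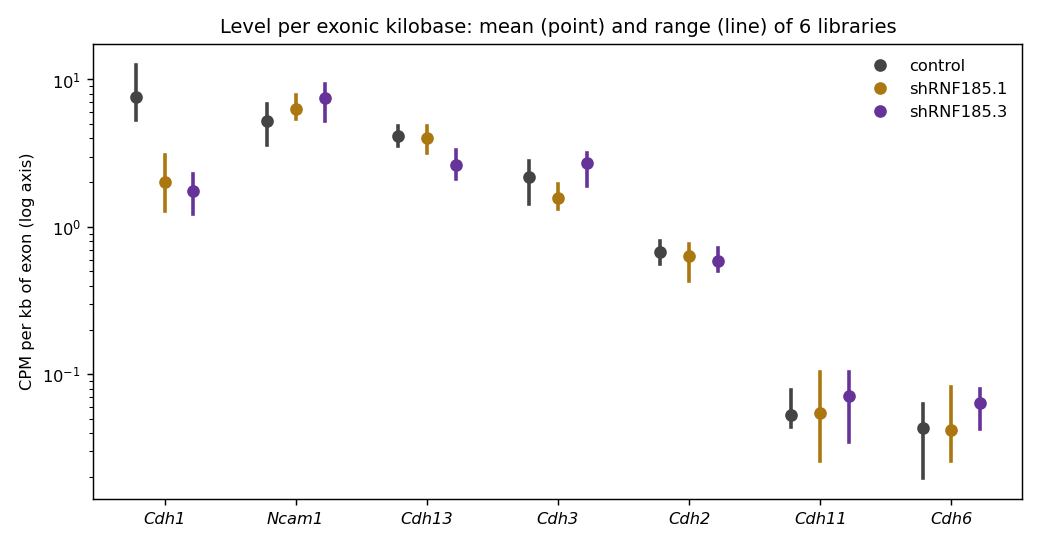
Level per exonic kilobase (vertical axis, log scale) of 5 of the 6 genes, with the epithelial cadherins Cdh1 and Cdh3 for reference; points are means and lines the range of 6 libraries per group. Cdh4 is left out because most of its libraries are at 0. With this length Cdh1 stands highest in control, at 7.66 CPM per kb, and Ncam1 does with either hairpin. Per kilobase of the longest coding transcript Cdh13 stands highest in control, at 12.2 against 7.91 for Cdh1. It does so too with shRNF185.1, at 11.9 against 8.27 for Ncam1.

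Cdh13 (ENSMUSG00000031841) lies on chromosome 8 of GRCm38 from 118283733 to 119324921 on the plus strand. None of its 75-base windows (0%) occurs in the transcripts of another gene, and its exons overlap those of 0 other genes. Control libraries held between 40.0 and 54.0 CPM with a median of 45.2, shRNF185.1 libraries between 35.8 and 54.1 with a median of 46.1, and shRNF185.3 libraries between 23.9 and 37.4 with a median of 29.0. The control and shRNF185.1 ranges thus nearly coincide, and the highest shRNF185.3 library stayed below the lowest control library. Among all tested genes 5.7% had every shRNF185.3 library below every control library.

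The means were 46.1 ± 5.44, 44.9 ± 7.12 and 29.5 ± 4.50 CPM (SD, n = 6 each). With shRNF185.3 Cdh13 fell to 0.641 of control, a log2 fold change of -0.64 (SE 0.11, edgeR adjusted p 0.000273). With shRNF185.1 the log2 fold change was -0.04, with a 95% confidence interval of -0.27 to 0.19 (edgeR adjusted p 0.817). The hairpins differed from each other in a direct test, where edgeR called 14.7% of all genes and 6.94% as lower: Cdh13 was lower with shRNF185.3 by a log2 difference of -0.60 (SE 0.11, edgeR adjusted p 0.00106), and 5 of its 6 libraries lay below the lowest shRNF185.1 library. Rnf185 itself did not pass that test (log2 difference 0.00, 95% confidence interval -0.16 to 0.16, edgeR adjusted p 0.997).

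Taken batch by batch (1, 2, 3), shRNF185.3 libraries differed from control in log2 Cdh13 by -0.59, -0.96 and -0.39, and shRNF185.1 libraries by 0.10, -0.31 and 0.06. The fall was therefore present in each batch with shRNF185.3, and the sign varied with shRNF185.1. The direct test between hairpins lost its call without batch 1, at -0.55 (edgeR adjusted p 0.0697). The mean of both hairpins was called below control, at -0.34 (edgeR adjusted p 0.00961), where 32.9% of all genes were called (16.1% higher and 16.8% lower). This mean averages -0.04 with shRNF185.1, which was not called, and -0.64 with shRNF185.3. It was -0.19 without batch 2 (adjusted p 0.165) and -0.39 without batch 1 (adjusted p 0.0634).

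Ncam1 (ENSMUSG00000039542) is on chromosome 9, minus strand, between 49502136 and 49798925. Of its 75-base windows 0.0113% occur in other transcripts, and its exons overlap 1 gene on the opposite strand, Gm11149. The libraries were made with a directional kit, but whether the counting used strand is not given in the sources used here. Control libraries held between 31.1 and 59.1 CPM with a median of 45.7, shRNF185.1 libraries between 46.9 and 67.6 with a median of 51.1, and shRNF185.3 libraries between 45.1 and 80.7 with a median of 67.1. With shRNF185.3, 5 of 6 libraries exceeded the highest control library, and replicate 1 lay among the controls.

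The means were 45.4 ± 9.68, 54.3 ± 8.61 and 65.0 ± 11.7 CPM (SD, n = 6 each). Ncam1 rose 1.44-fold with shRNF185.3, a log2 fold change of 0.52 (SE 0.14, edgeR adjusted p 0.0106). With shRNF185.1 it was 0.26, with a 95% confidence interval of -0.04 to 0.56 (edgeR adjusted p 0.191), and the difference between the hairpins was also 0.26, with an interval of -0.04 to 0.56 (adjusted p 0.272). The direct test between hairpins was thus passed by Cdh13 and not by Ncam1. The mean of both hairpins was called at 0.39 (SE 0.13, edgeR adjusted p 0.023).

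The size of the Ncam1 change varied between batches. From batch 1 to batch 3 the shRNF185.3 libraries exceeded their controls by 0.07, 0.43 and 1.08 in log2 Ncam1, and the shRNF185.1 libraries differed by 0.22, -0.09 and 0.69. Batch 3 also held the 2 lowest control libraries, replicate 5 at 31.1 CPM and replicate 6 at 40.0 CPM. Without batch 3 the shRNF185.3 change was 0.26 (edgeR adjusted p 0.259) and that of both hairpins 0.17 (adjusted p 0.404). When the 2 libraries per batch were added up within each group, the shRNF185.3 change was 0.54 (adjusted p 0.0508) and that of both hairpins 0.41 (adjusted p 0.0724). The call for both hairpins was also lost without control replicate 1, 5 or 6, at 0.37, 0.30 and 0.36 (adjusted p 0.0504, 0.0636 and 0.0569). The summed fibroblast markers were also higher with shRNF185.3 than in control, led by Col1a2 (374 to 545 CPM) and Col1a1 (80.0 to 365 CPM), whereas Dcn averaged 24.9 CPM in control and 17.6 CPM with shRNF185.3 and Thy1 was at or near 0. Their part in the Ncam1 result was not tested.

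**Figure D3:**
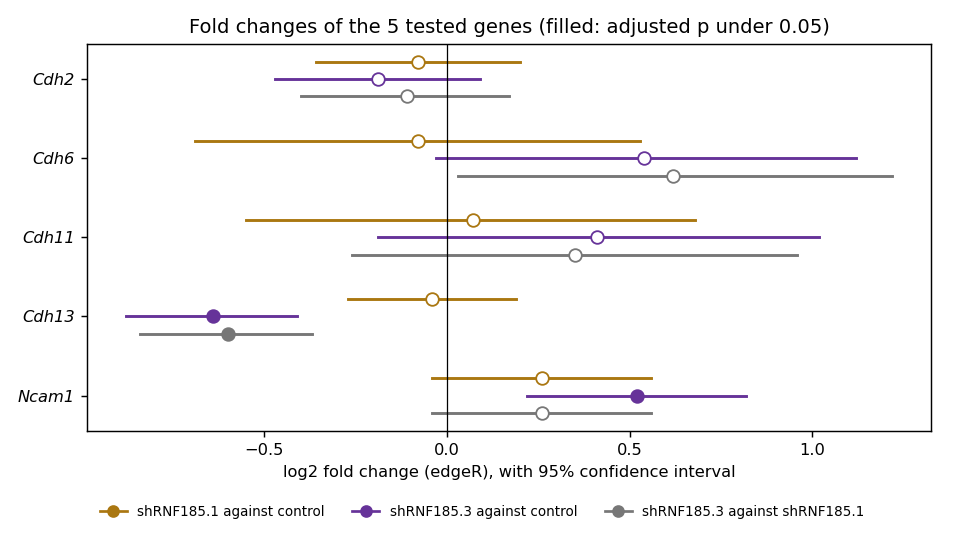
Log2 fold changes (horizontal axis) of the 5 tested genes with 95% confidence intervals from edgeR, for each hairpin against control and for the hairpins against each other; filled points have an adjusted p under 0.05. Cdh13 lies at -0.64 and Ncam1 at 0.52 with shRNF185.3, and no shRNF185.1 point is filled.

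Cdh2 (ENSMUSG00000024304), the mesenchymal partner in the cadherin switch, did not pass the test in any comparison. Control libraries held between 4.53 and 6.46 CPM with a median of 5.55, shRNF185.1 libraries between 3.48 and 6.21 with a median of 5.14, and shRNF185.3 libraries between 4.04 and 5.80 with a median of 4.66. The 3 ranges overlap broadly. These values rest on 85 to 206 counts per library.

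The log2 fold change of Cdh2 was -0.08 with shRNF185.1 (95% confidence interval -0.36 to 0.20, edgeR adjusted p 0.702) and -0.19 with shRNF185.3 (-0.47 to 0.09, adjusted p 0.312). The hairpins differed by -0.11 (-0.40 to 0.17, adjusted p 0.697). By batch (1, 2, 3) the shRNF185.1 difference in log2 Cdh2 was 0.08, 0.12 and -0.47, with no constant sign, and the shRNF185.3 difference was -0.23, -0.02 and -0.32.

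**Figure D4:**
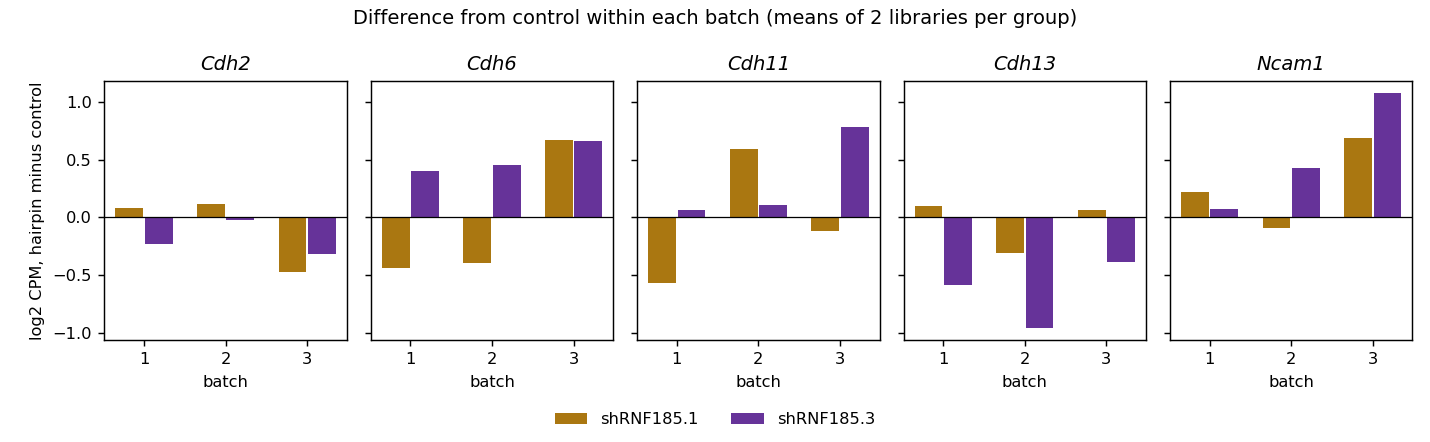
Log2 CPM difference from control (vertical axis) of the 5 tested genes within each batch, with a bar per hairpin, from means of 2 libraries per group. Cdh13 bars are below 0 in every batch with shRNF185.3, and Ncam1 bars are tallest in batch 3, at 0.69 and 1.08. With shRNF185.1 the bars of all 5 genes change sign between batches.

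Cdh11 (ENSMUSG00000031673, chromosome 8, 102632095 to 102785642, minus strand) is typical of osteoblasts and fibroblasts. It was detected in every library, at 6 to 26 counts. Its range was 0.391 to 0.696 CPM in control with a median of 0.426, 0.228 to 0.922 with shRNF185.1 with a median of 0.445, and 0.309 to 0.925 with shRNF185.3 with a median of 0.643. The highest shRNF185.1 library lay above all control libraries and the lowest below all of them. The log2 fold changes were 0.07 (95% confidence interval -0.55 to 0.68) and 0.41 (-0.19 to 1.02), with edgeR adjusted p-values of 0.891 and 0.31. By batch (1, 2, 3) the shRNF185.1 difference was -0.57, 0.59 and -0.12 and the shRNF185.3 difference 0.06, 0.11 and 0.78.

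Cdh6 (ENSMUSG00000039385, chromosome 15, 13028701 to 13173675, minus strand), first known from the kidney, held 5 to 23 counts per library. It ranged from 0.178 to 0.565 CPM in control with a median of 0.378, from 0.233 to 0.734 with shRNF185.1 with a median of 0.335, and from 0.385 to 0.715 with shRNF185.3 with a median of 0.580. With shRNF185.3, 3 of 6 libraries lay above the highest control. With shRNF185.1 its log2 fold change was -0.08 (95% confidence interval -0.69 to 0.53, edgeR adjusted p 0.865), and with the other hairpin 0.54 (-0.03 to 1.12, adjusted p 0.155).

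Cdh6 passed the filter through the shRNF185.3 group, where all 6 libraries reached 0.368 CPM, against 3 of 6 in control and 1 of 6 with shRNF185.1, so its place among the tested genes is itself tied to that group and its values against that group are given as a description. The direct difference between hairpins was 0.62 (95% confidence interval 0.03 to 1.22) and was not called. It was 0.91 without shRNF185.1 replicate 5, the library at 0.734 CPM, and 1.03 without batch 3. Both of these values passed the threshold. They are not taken as support for a difference, since the filter took Cdh6 in through the group where it was high. By batch (1, 2, 3) the shRNF185.1 difference from control was -0.44, -0.40 and 0.67, and the shRNF185.3 difference was 0.40, 0.45 and 0.66.

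Cdh4 (ENSMUSG00000000305, chromosome 2, 179442431 to 179899373, plus strand) gave 2 counts in all control libraries, 1 with shRNF185.1 and 3 with shRNF185.3. All of them came from batch 3, and every library of batches 1 and 2 had 0. A count of 0 allows up to 3 counts, which is 0.0701 to 0.133 CPM depending on the library and covers counting error only. No fold change is given. Cdh4 is not among the 15386 genes of the deposited CPM table.

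Of the epithelial cadherins Cdh1 was called with both hairpins and Cdh3 with shRNF185.1 only, whereas Cdh2 was called with neither. Cdh1 (E-cadherin) ranged from 24.2 to 57.7 CPM in control, from 5.83 to 13.9 with shRNF185.1 and from 5.63 to 10.5 with shRNF185.3. No hairpin library reached the controls. Of all tested genes 5.7% had every shRNF185.3 library below every control library, and the matching share for shRNF185.1 is not given here. Cdh1 fell by 1.91 on the log2 scale with shRNF185.1 (edgeR adjusted p 1.37e-05) and by 2.13 with the other hairpin (adjusted p 4.85e-06), with an SE of 0.25 for both. Cdh3 (P-cadherin) fell with shRNF185.1, at -0.46 (edgeR adjusted p 0.0254), and was at 0.32 with shRNF185.3 (adjusted p 0.115; 0.0421 without shRNF185.3 replicate 1 and 0.0207 with summed libraries), with a direct difference of 0.78 (adjusted p 0.00126). The Cdh3 call with shRNF185.1 was lost without batch 1 (-0.46, adjusted p 0.0576) or batch 2 (-0.37, 0.191), and without control replicate 2 (-0.38, 0.0694) or 6 (-0.41, 0.0601) or shRNF185.1 replicate 1 (-0.42, 0.0596), 3 (-0.43, 0.0537) or 4 (-0.44, 0.0506). The call between hairpins was lost without batch 2 (0.69, adjusted p 0.0646).

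The ratio of Cdh2 to Cdh1 counts within a library, a measure chosen after the values were seen, does not depend on library scaling. It ranged from 0.0953 to 0.267 in control with a median of 0.170, from 0.382 to 1.05 with shRNF185.1 with a median of 0.536, and from 0.468 to 0.788 with shRNF185.3 with a median of 0.602. Every hairpin library lay above every control library. The mean log2 ratio was higher than in control by 1.83 and 1.90, and it differed by 0.07 between the hairpins. No test is given, since the ratio was chosen for this pattern and restates it. Cdh1 fell with both hairpins, and Cdh2 was not called in either direction.

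**Figure D5:**
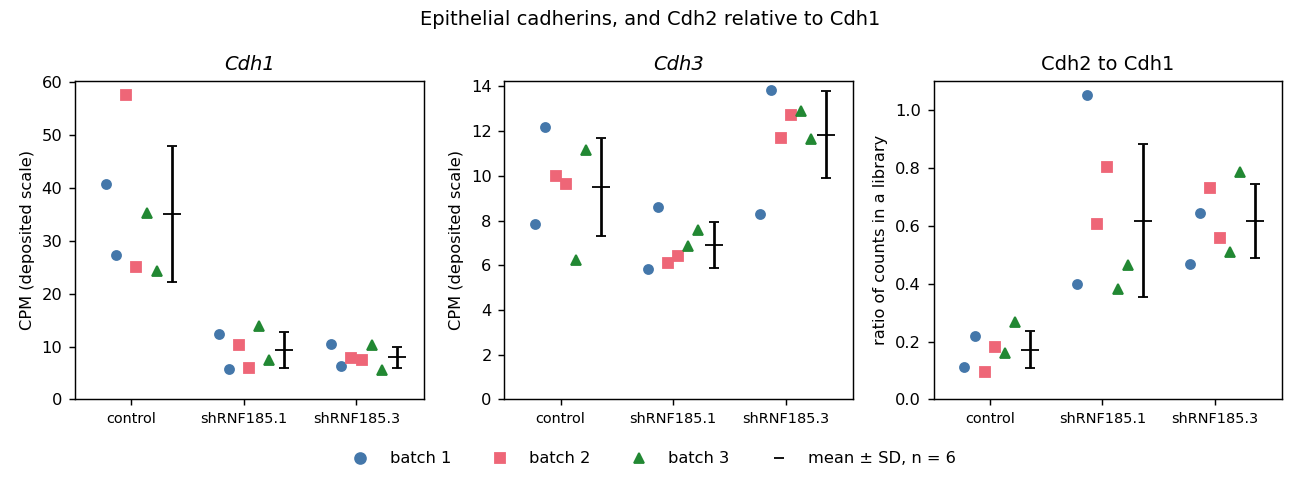
CPM of Cdh1 and Cdh3 and the ratio of Cdh2 to Cdh1 counts (vertical axes, linear, from 0) in every library by group, with batch by colour and shape and mean ± SD of 6 libraries. Cdh1 stays at or below 13.9 CPM in all hairpin libraries, and the ratio stays at or below 0.267 in control.

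The cytoplasmic partners and processing enzymes of the cadherins were then counted from lists chosen by function. Of 12 catenins and related partners 9 were tested; in the shRNF185.1 comparison 2 rose and 2 fell, in the shRNF185.3 comparison 1 rose and 3 fell, and their median log2 fold change was 0.04 and -0.07. Over all genes 28.9% and 27.3% were called in these comparisons, with a median of -0.02 in both. Jup (plakoglobin), which links cadherins of adherens junctions and desmosomes, fell from 77.3 ± 16.2 CPM by 1.02 and 1.21 on the log2 scale (edgeR adjusted p 8.58e-05 and 1.53e-05, n = 6 each). Ctnnb1 (beta-catenin) fell by 0.16 and 0.20 (adjusted p 0.00805 and 0.00199), a call lost with shRNF185.1 without batch 1 (-0.14, adjusted p 0.16) or batch 3 (-0.15, 0.0848). Afdn (afadin), an actin-binding junction protein, rose by 0.30 and 0.19 (adjusted p 0.000454 and 0.0195); with shRNF185.3 the call was lost without batch 1 (0.20, 0.105), batch 2 (0.11, 0.201) or shRNF185.3 replicate 3 (0.15, 0.0502).

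Of 12 proteases, and subunits of proteases, that cut cadherins or remove their prodomain 11 were tested, of which 3 rose and 3 fell in the shRNF185.1 comparison and 1 rose and 1 fell in the shRNF185.3 comparison, with median log2 fold changes of 0.04 and 0.06, again beside 28.9% and 27.3% of all genes called and a median of -0.02. Mmp14 rose by 0.16 and 0.30 (edgeR adjusted p 0.0189 and 0.000127); with shRNF185.1 this call was lost without batch 1 (0.12, adjusted p 0.269), without batch 3 (0.12, 0.198) and with a looser filter (0.16, 0.056). Psenen, a subunit of gamma-secretase, fell by 0.17 and 0.14 (adjusted p 0.0122 and 0.0429), but the first call was lost without batch 1 (-0.20, 0.0723) or batch 2 (-0.14, 0.103) and the second in 19 of 30 alternative analyses. Furin and Adam10, which mature and shed cadherins, were not called with either hairpin.

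Partners of Ncam1 and Cdh13 formed a list of 13, of which 10 were tested. In the shRNF185.1 comparison 3 rose and 1 fell, and in the shRNF185.3 comparison 4 rose and 1 fell, with median log2 fold changes of 0.06 and 0.00, beside the same 28.9% and 27.3% of all genes. St8sia2, a polysialyltransferase that modifies Ncam1, was at 0 in every library, and the second such enzyme, St8sia4, did not pass the filter, at 0.0613 CPM in control. Gfra2, a relative of the GDNF co-receptor that can act with Ncam1, rose by 1.40 and 0.93 (edgeR adjusted p 1.47e-05 and 0.00087), and Fgfr2, of the receptor family that signals with Ncam1 and Cdh2, rose by 0.93 and 1.22 (adjusted p 0.00234 and 0.000205) from 0.742 CPM in control. Fgfr1, the more abundant receptor at 174 CPM in control, fell by 0.57 with shRNF185.1 (edgeR adjusted p 0.00021) and was at -0.16 with the other hairpin (adjusted p 0.232). Gfra1 and Gdnf were not called with either hairpin, at 32.6 and 38.2 CPM in control. Prnp, a membrane partner of Ncam1, rose by 0.30 with each hairpin (adjusted p 0.000207 and 0.000221). Adipoq, the adiponectin that Cdh13 binds, averaged 0.011 CPM in control and did not pass the filter.

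Genes whose log2 CPM followed that of a member most closely over the 18 libraries were ranked by Pearson r among up to 11696 genes with a mean count of at least 50. Cdh13 was followed by Insr, the insulin receptor (r = 0.959), and Kdm5a, a histone demethylase (r = 0.952). Insr had log2 fold changes of 0.05 and -0.31 and Kdm5a of 0.03 and -0.47, the second of each being called (edgeR adjusted p 0.00284 and 0.000416). Ncam1 was followed by H6pd, an enzyme of the endoplasmic reticulum (r = 0.951), and Fblim1 (r = 0.903). H6pd had log2 fold changes of 0.26 (edgeR adjusted p 0.0607) and 0.47 (adjusted p 0.00165). Those of Fblim1 were 0.19 (edgeR adjusted p 0.0202) and 0.24 (adjusted p 0.00575). Fblim1 was thus called with both hairpins, unlike Ncam1. The leading values were lower for Cdh2, with the gene listed as Mir684-1 (r = 0.778) and Zfp369 (r = 0.768), for Cdh6, with Nyap1 (0.866) and Bicra (0.858), and for Cdh11, with Gm7785 (0.791) and Safb2 (0.757). The points share libraries, depth and the 3 groups, and the counts of Cdh6 and Cdh11 are few, so these values describe the libraries only.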

How the data were processed

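Per the labels' protocols, polyadenylated RNA was made into directional libraries and read from 1 end over 75 bases. The submitters' processing notes list cutadapt 2.3, STAR 2.7.0d, RSEM 1.3.1 and the build mm10 without their roles; the annotation, the strand setting and the terms given to the batch adjustment are not given in the sources used here. The authors deposited expected counts adjusted by ComBat-Seq, per the file names in the labels, of which 0.466% are not whole, and these were rounded. The deposited CPM are a normalised signal whose columns sum to 969986 to 1026394; each equals the counts divided by a constant within a relative difference of 1.04e-06, and levels are on this scale. An adjustment that used group labels could make libraries of a group more alike than they were measured. The fits without a batch used these same counts, which were not adjusted anew. The main fit makes no allowance for the adjustment.

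Counts were tested in R 4.3.3 with edgeR 4.0.16 (TMM scaling, filterByExpr with a minimum count of 10, quasi-likelihood F test, 18 libraries, group means, no covariate) and Benjamini-Hochberg adjustment over 14309 genes, with calls at an adjusted p under 0.05. The procedure was tested on simulated data. Within-batch log2 differences use a pseudocount of 0.1 CPM. Alternatives used library size alone, other size factors, DESeq2 1.42.0, limma 3.58.1 (voom, and log2 of deposited CPM plus 1), a looser filter, a replicate block, a batch term, left-out batches or libraries, and summed libraries. Symbols matched 99.7% of tested genes. Positions are of GENCODE M21 on GRCm38.

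The genes and lists were chosen with earlier results of these data known. Named besides them were Cdh1, Cdh3, up to 3 genes per list with the largest change of both hairpins among those called alike with each, and the 2 genes most correlated with each member over 18 libraries (log2 CPM, prior count 2); the other names were chosen after their values were seen. Libraries of a group compared in 45 pairs gave a chi-square of 6.06 to 65.1 per gene, so none looked like a duplicate. No sequences are shown.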

Additional observations from a re-analysis of the deposited data

Results flagged for a closer look

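Among 66 groups of 6 libraries (the 5 tested members, Cdh1, Cdh3, Rnf185 and the genes named from the lists, without those named for likeness), 3 had their highest or lowest library set apart from the rest by most of the group's range, where chance gives about 3.3. For Cdh6, shRNF185.1 replicate 5 was highest at 0.734 CPM and the others reached at most 0.355. For Cdh3, shRNF185.3 replicate 1 was lowest at 8.27 CPM, against at least 11.6 in the others; this is also the shRNF185.3 library in which Ncam1 was lowest, at 45.1 CPM. For Fgfr2, replicate 5 of that group was lowest at 0.914 CPM, against at least 1.73.

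The hairpins differed from each other by edgeR's direct test in 4 of these genes, where 14.7% of all genes were called. The log2 difference of shRNF185.3 from shRNF185.1 was -0.60 for Cdh13 (adjusted p 0.00106), 0.78 for Cdh3 (0.00126), -0.92 for Dchs2 (0.000901) and 1.64 for Alcam (4.59e-05). Of the genes named for likeness, Insr (-0.36, adjusted p 0.0015), Kdm5a (-0.50, 0.000524) and Nyap1 (0.63, 0.00318) were also called; they were chosen because they followed Cdh13 and Cdh6 in these libraries.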

How the results depend on the processing

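Over 30 alternatives and 4 comparisons, 588 of 600 values of the 5 tested genes stayed on their side of the threshold, 10 lost a call and 2 gained one. A called value changed sign in 0 cases, but changes of sign between uncalled values were not counted. With shRNF185.1, for example, Cdh2 ranged from -0.18 to 0.11 and Cdh11 from -0.37 to 0.39. Most of the values were uncalled in the main fit, and 18 of the 30 alternatives left out 1 library. The fall of Cdh13 with shRNF185.3 stayed called throughout, between -0.78 and -0.48. The genes called with shRNF185.3 numbered 2, but 1 without batch 3 and 1 with summed libraries. For both hairpins they numbered 2, but 1 without batch 1, 1 without batch 2, 1 without batch 3, 1 with summed libraries, and 1 to 2 leaving out a library. Between the hairpins they numbered 1, but 0 without batch 1, 2 without batch 3, and 1 to 2 leaving out a library. Both gained calls were of Cdh6, which passed the filter through the shRNF185.3 group, so they are not taken as support for a difference. All genes called fell from 4141 to 2207 with shRNF185.1 without batch 1; from 3906 to 2120 without batch 1 and 2501 without batch 3 with shRNF185.3; from 4701 to 2672 and 3106 for both; and from 2098 to 753 without batch 1 and 1208 without batch 2 between hairpins. Fewer libraries entered each of these fits.

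The replicate block left the counts of members at 0, 2, 2 and 1 and gave 3811, 3578, 4304 and 1976 genes in all; Cdh3 with shRNF185.3 became called (0.33, adjusted p 0.0486) and Psenen with shRNF185.3 lost its call (0.0572). Same-numbered libraries of different groups correlated at a mean of -0.0144 over 18 pairs, 4 of them over 0.1, with a range of -0.628 to 0.705. The numbers were not taken to pair the samples, but the mean does not exclude something shared by single pairs. Some genes still differed by odd and even number, as given under the other observations. The Cdh2 to Cdh1 log2 ratio was 1.54 to 2.23 above control without each batch, alternatives chosen after seeing the data. Cdh6 and Cdh11 rest on 5 to 26 counts per library.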

Other observations

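Counts are given for 3 further lists, none of which was tested as a list, beside 28.9% and 27.3% of all genes called with shRNF185.1 and shRNF185.3. Of 21 protocadherins and large cadherins of the Fat, Dachsous and Celsr families 11 were tested; 5 rose and 2 fell in the shRNF185.1 comparison and 4 rose and 2 fell in the shRNF185.3 comparison, with median log2 fold changes of 0.17 and 0.03 beside -0.02 for all genes. Dchs2 rose from 0.227 ± 0.0663 CPM to 1.19 ± 0.199 and 0.624 ± 0.0974 CPM (SD, n = 6 each), its partner family member Fat4 from 2.26 ± 0.319 to 4.92 ± 1.34 and 5.06 ± 1.03, and Pcdh9 from 2.09 ± 0.180 to 3.87 ± 0.626 and 3.79 ± 0.761. Dchs2 passed the filter only through the hairpin groups, since no control library reached 0.368 CPM. Celsr1, another of the 4 that rose in the shRNF185.3 comparison, passed the filter through that group alone. It held at least 0.822 CPM there, at most 0.327 CPM with shRNF185.1 and a median of 0.326 CPM in control. The rises of Dchs2 and Celsr1 are given as a description. Of 22 immunoglobulin adhesion molecules other than Ncam1 9 were tested, and 1 was called higher and 3 lower with each hairpin, with median log2 fold changes of 0.05 and 0.14. Cadm2 rose by 1.29 and 1.58 on the log2 scale, but it too passed the filter through the hairpin groups, with 1 of 6 control libraries over 0.368 CPM. Alcam fell by 2.45 and 0.81 and Cadm4 by 1.30 and 0.87; with shRNF185.3 these calls were lost without batch 2 (-0.58, edgeR adjusted p 0.085, and -0.53, adjusted p 0.117), and that of Cadm4 also without batch 1 (-0.97, adjusted p 0.0639). Ncam2, the paralog of Ncam1, did not pass the filter, at 0.0375 CPM in control.

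Of 18 other cadherins 5 were tested, and 1 rose and 3 fell in the shRNF185.1 comparison and 0 rose and 2 fell in the shRNF185.3 comparison, Cdh1 and Cdh3 included. Cdh24 fell by 0.48 with shRNF185.1 (edgeR adjusted p 2.04e-05), was at -0.17 with shRNF185.3 (0.0608) and was higher with shRNF185.3 than with the other hairpin by 0.31 (0.00275). Cdh17 was at -0.60 with shRNF185.1 (edgeR adjusted p 0.0616) and fell by 0.74 with shRNF185.3 (0.0253). Cdh26 held 1.83 ± 0.542 CPM in control libraries, 4.03 ± 0.353 in shRNF185.1 libraries and 1.40 ± 0.274 in shRNF185.3 libraries (SD over 6 libraries), a log2 difference between hairpins of -1.52 (edgeR adjusted p 4.69e-06). It was called above control with shRNF185.1 (log2 1.13, adjusted p 3.62e-05) and not called with shRNF185.3 (-0.38, 0.109). Cdh24, Cdh17 and Cdh26 were all named after their values were seen.

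Some levels also differed between the 2 libraries of a group and batch by replicate number. Cdh1 was lower in the even-numbered library in 9 of 9 such pairs, with a median log2 difference of -0.78, and Cdh13 in 8 of 9, with a median of -0.16. Cdh3 was higher in the even-numbered library in 7 of 9 pairs, Ncam1 in 6 and Cdh2 in 3. The labels do not say what the numbers stand for, and no test was made. The pattern was counted only for the members, Cdh1 and Cdh3, so how common it is over all genes is not known.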
